A study of Mus musculus with 2 samples.

Results

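The genes of oxidative phosphorylation were examined in Th17 cells with and without *Fak* (gene symbol *Ptk2*), the focal adhesion kinase. They were taken by symbol: every row starting with Nduf, Uqcr, Cox4, Cox5, Cox6, Cox7, Cox8 or Atp5, together with *Sdha*, *Sdhb*, *Sdhc*, *Sdhd*, *Cyc1* and *Cycs*. This gave 94 genes of 23282 rows, with 36 genes in complex I, 7 complex I assembly factors, 4 genes in complex II, 9 in complex III, *Cycs*, 20 genes in complex IV and 17 in complex V. The prefixes also take in 12 genes whose products are not subunits, and 82 genes encode subunits or their tissue isoforms. No row had a symbol starting with mt-, so the subunits encoded by mitochondrial DNA were not analysed here.

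Oxidative phosphorylation makes ATP in the inner mitochondrial membrane. Complexes I and II pass electrons from NADH and succinate to coenzyme Q, complex III passes them to cytochrome c, and complex IV to oxygen. Complexes I, III and IV pump protons, and complex V, the ATP synthase, uses their return to make ATP. Activated T cells take up glucose and use glycolysis strongly while they keep respiring, and complex I and III activity has been tied to T cell proliferation and cytokine production.

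Both groups were naïve CD4 T cells from the spleens of *Fak* fl/fl mice, which carry loxP sites around part of *Fak*. The cells were stimulated through CD3 and CD28 for 3 days with IL-6, TGFβ1, TNF-alpha, IL-1beta and antibodies against IFNgamma and IL-4. The control cells received a control retrovirus and the RV-Cre cells a retrovirus carrying Cre and GFP, and transduced cells were sorted by GFP according to the study's methods, which describe young adult female mice. The genotype label of the control library says WT where its title says *Fak* fl/fl, and the title was used. Cre and the loss of *Fak* came together in the RV-Cre cells and cannot be told apart here. There was 1 library per condition, so no difference has a replicate check, no p-value is given, and intervals cover counting error only. In bulk RNA, fewer cells of a type and less RNA per cell cannot be told apart.

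The control library held 13799264 counted reads and the RV-Cre library 12305010. *Ptk2* had 110 reads in the control and 31 in the RV-Cre cells, for a normalized ratio of 0.318 (exact 95% interval 0.206 to 0.477). Some reads of the targeted gene thus remained after Cre. The QuantSeq 3′ kit counts transcript ends, so these reads do not show whether the loxP-flanked part was lost. The study measured *Fak* transcript and protein in such sorted cells by RT-qPCR and immunoblot. Ribosomal RNA from *Rn45s* took 8.50% of the control reads and 14.6% of the RV-Cre reads. The 5 Th17 markers summed to 2101 and 653 reads and 9 of 10 T cell markers, the rest not listed, to 26986 and 33342. Sums of markers of other cells were low but higher in the RV-Cre library: 69 and 133 reads for 8 B cell genes, with *Pax5* at 0 in both, 180 and 335 for 11 myeloid genes, with *Mpo* at 0 in both, and 45 and 236 for 7 erythroid genes. The 8 CD8 and NK genes summed to 1488 and 1623 reads, with genes on both sides: *Cd8a* had 322 and 580 reads and *Gzma* 286 and 66. The part of these differences in the results below was not tested.

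The subunits are made in fixed proportions, and their promoters are known for sites of the activators NRF1, the ETS family (which includes GABP), YY1 and CREB. RefSeq promoters of GRCm38.p6, from 250 bases before to 50 bases after the start, were found for 77 of the 94 genes. On either strand, CGCATGCG, the core of the NRF1 site, was in 11 of them, or 14.3%, against 1.91% of 27025 promoters of all genes and 4.14% of the 9156 promoters of expressed rows. AAGATGGC, the YY1 motif, was in 10, or 13.0%, against 2.88% and 4.96%, and in 9 of them it lay 20 to 40 bases after the start. TGACGTCA, the CRE, was in 5, or 6.49%, against 1.88% and 3.40%. CCGGAAG, the ETS motif, was in 16, or 20.8%, which was above the 9.12% of all promoters but close to the 19.1% of expressed rows. CCAAT of NF-Y was in 45.5%, against 37.9% and 39.4%, and GGGCGG of SP1 also in 45.5%, against 35.9% and 64.1%. A match is a string of letters and no evidence of binding.

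The stretches before the start of 4 genes are shown because pairs with the same motif differed in their ratio between the libraries. Each has 90 bases, 5′ to 3′ on the gene's strand, ends 4 bases before the RefSeq start, and has the NRF1 core or the ETS motif (CTTCCGG when read on the other strand) in capitals. *Cycs* is read from chr6:50566573-50566662 (minus strand), *Ndufa11* from chr17:56717669-56717758 (plus), *Sdhd* from chr9:50603853-50603942 (minus) and *Uqcrh* from chr4:116075074-116075163 (minus).
Cycs: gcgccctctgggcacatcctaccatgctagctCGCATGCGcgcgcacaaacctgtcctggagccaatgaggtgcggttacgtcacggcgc
Ndufa11: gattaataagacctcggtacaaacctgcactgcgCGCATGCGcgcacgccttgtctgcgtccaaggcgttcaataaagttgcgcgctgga
Sdhd: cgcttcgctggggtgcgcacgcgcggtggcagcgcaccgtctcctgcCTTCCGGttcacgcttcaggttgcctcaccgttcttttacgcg
Uqcrh: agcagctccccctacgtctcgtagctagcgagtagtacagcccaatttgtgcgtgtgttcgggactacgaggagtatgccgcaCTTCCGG
The log2 ratio was -0.13 for *Cycs* and 0.60 for *Ndufa11*, which share the NRF1 core, and -1.52 for *Sdhd* and 0.57 for *Uqcrh*, which share the ETS motif. The median log2 ratio of the expressed members was 0.07 with the NRF1 core and -0.02 without it, 0.02 and -0.05 for the ETS motif, 0.17 and -0.07 for the YY1 motif, and -0.13 and 0.02 for the CRE.

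The oxidative phosphorylation genes as a group were near equal in the control and RV-Cre cells, and a small set of subunits stood apart, mostly lower in the RV-Cre cells. The share of members past each fold, higher or lower, was smaller than that of all rows. A gene counted as expressed with log2(normalized count + 1) of at least 4 in 1 library, which is 15 normalized reads, and 88 of the 94 genes passed. Their median log2 ratio, RV-Cre minus control, was -0.03, with a range of -1.52 to 1.35, beside -0.01 for the 12112 rows that passed. The sign of the members' median turned under 4 of 7 scalings, and relative to all rows it lay between -0.04 and 0.05 under each of them. Most of these scalings apply 1 factor per library, which moves members and all rows nearly alike. The middle 50% of the members spanned 0.59 on the log2 scale, against 1.07 for all rows.

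Past 2-fold, 1 member, *Cox6b2*, was higher, beside 14.2% of all rows that passed, and 4 members were lower, beside 12.3%. These 4 were *Sdhd*, *Cox7c*, *Uqcrfs1* and *Sdhc*. At 1.5-fold, 3 members were higher beside 23.5% of all rows, and 12 members, or 13.6%, were lower beside 22.9%. The counting interval of the ratio lay above 1 for 33 members, beside 36.7% of all rows, and below 1 for 35, beside 38.1%. At this depth counting error alone separates small differences, and the members share depth with abundant rows rather than with all rows. Of the 88 members, 68 had a mean log2 value of at least 10, and 66 members had 1000 reads or more in both libraries. Among all 2473 rows of that abundance, 3.28% were higher and 6.07% lower by 2-fold or more, and 9.99% were higher and 17.6% lower by 1.5-fold or more. Of the 68 members there, 0 were higher and 2 were lower by 2-fold or more. By 1.5-fold or more 1 was higher (1.47%) and 7 were lower (10.3%), and the median of these members was 0.06 against -0.10 for the rows of that abundance.

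**Figure D1:**
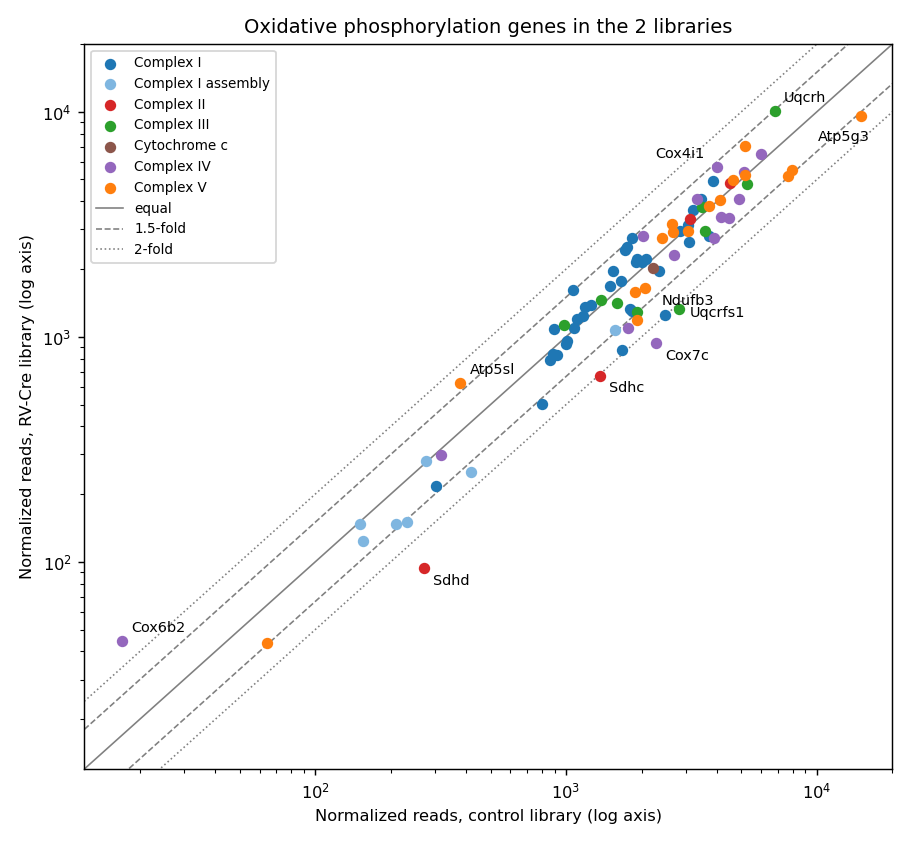
Normalized reads of the 88 expressed genes in the control library (x axis) and the RV-Cre library (y axis), both on log axes, with 1 point per gene coloured by complex; lines mark equal values, 1.5-fold and 2-fold. Most points lie within the 1.5-fold lines, while Sdhd, Sdhc, Cox7c and Uqcrfs1 lie below the lower 2-fold line.

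Summed over all members, the genes took 1.71% of the control reads and 1.63% of the RV-Cre reads, a normalized ratio of 0.958 (0.953 to 0.964). Reads were summed because the QuantSeq 3′ kit counts transcript ends, so a count does not grow with transcript length. *Atp5g3* was the gene with most reads, and without it the ratio was 0.982. The ratio was above 1 under 3 of 6 scalings.

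Complex I, the NADH dehydrogenase, had a sum near equal, at 68837 reads in the control and 62914 in the RV-Cre cells, for a normalized ratio of 1.03 (1.02 to 1.04). The median log2 ratio of its 36 genes was 0.09 and stayed above 0 under 7 of 7 scalings. Of these genes 22 were above 0 and 14 (38.9%) below, beside 50.4% of all rows below 0. Past 1.5-fold 1 gene (2.78%) was higher and 3 (8.33%) were lower, beside 23.5% and 22.9% of all rows.

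The 7 catalytic core subunits, which hold the flavin and iron-sulphur clusters and the coenzyme Q site, had a median of 0.09. *Ndufs1*, the largest core subunit, had 1241 and 1167 reads (control, RV-Cre), a log2 ratio of 0.09. *Ndufs7*, which carries the last iron-sulphur cluster, had 952 and 1021 reads (0.28). The counting interval of *Ndufs7* lay above 1 and that of *Ndufs1* did not. *Ndufs8* had 1143 and 1033 reads (0.03) and *Ndufs3* 940 and 790 (-0.08), both with counting intervals that include 1. The flavoprotein pair that accepts electrons from NADH had ratios on opposite sides of 1 under 7 of 7 scalings: *Ndufv1*, which binds the flavin, had 1634 and 1845 reads, a log2 ratio of 0.35, and *Ndufv2* had 1941 and 1221, a log2 ratio of -0.49. For *Ndufs3*, 53.0% of the 50-base windows in the last 300 bases of its transcript also occurred in another annotated gene, so its reads are uncertain. For every gene, windows were taken from this end stretch only.

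Among the 29 accessory subunits, which surround the core and serve its assembly and stability, the largest differences were reductions in small membrane-arm proteins. *Ndufb3* had 2638 reads in the control and 1171 in the RV-Cre cells, a ratio of 0.501 (0.467 to 0.537). *Ndufa1*, an X-linked gene (chrX:37187588-37191163), had 1770 and 825, a ratio of 0.526 (0.484 to 0.572). Both were close to 2-fold lower in the RV-Cre cells, and 19.1% of the windows of *Ndufb3* and none of *Ndufa1* were shared with another gene. On the other side, *Ndufa11*, a membrane-arm subunit, had 1127 and 1512 reads, a ratio of 1.51 (1.40 to 1.64), and *Ndufa13*, also known as GRIM-19, had 1953 and 2590, a log2 ratio of 0.58. The exons of *Ndufa11* overlap those of *Vmac*, and without a stated use of strand their reads cannot be told apart there. The subunits with most reads were *Ndufa2*, at 4085 and 4655 (0.36), and *Ndufa5*, at 3665 and 3866 (0.25). The other accessory subunits lay between these extremes, and the 4 accessory NDUFS and NDUFV genes stayed within -0.13 to 0.17.

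The 7 complex I assembly factors, which build the complex and are not part of it, were lower as a list, with a median log2 ratio of -0.52, below 0 under 7 of 7 scalings. In the list 6 of 7 genes (85.7%) were below 0, beside 50.4% of all rows. Their summed reads were 3192 in the control and 2047 in the RV-Cre cells, a ratio of 0.724 (0.684 to 0.765). *Ndufaf2* had 442 and 236 reads (ratio 0.603, 0.512 to 0.707) and *Ndufaf5* 246 and 141 (0.647, 0.522 to 0.799), and these 2 passed 1.5-fold. *Ndufaf4*, the factor with most reads, had 1661 and 1014 (0.689, 0.637 to 0.745). *Ndufaf3*, at 160 and 138 reads, and *Ndufaf7*, at 294 and 264, had intervals that include 1. The assembly factors had fewer reads than most subunits of complex I. The list is small, and a share of 2 in 7 stands beside the 22.9% of all rows that were at least 1.5-fold lower. It also leaves out *Atp5sl*, which serves complex I assembly but was grouped with complex V by its symbol. *Atp5sl* was higher, at a ratio of 1.64 (1.44 to 1.86).

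**Figure D2:**
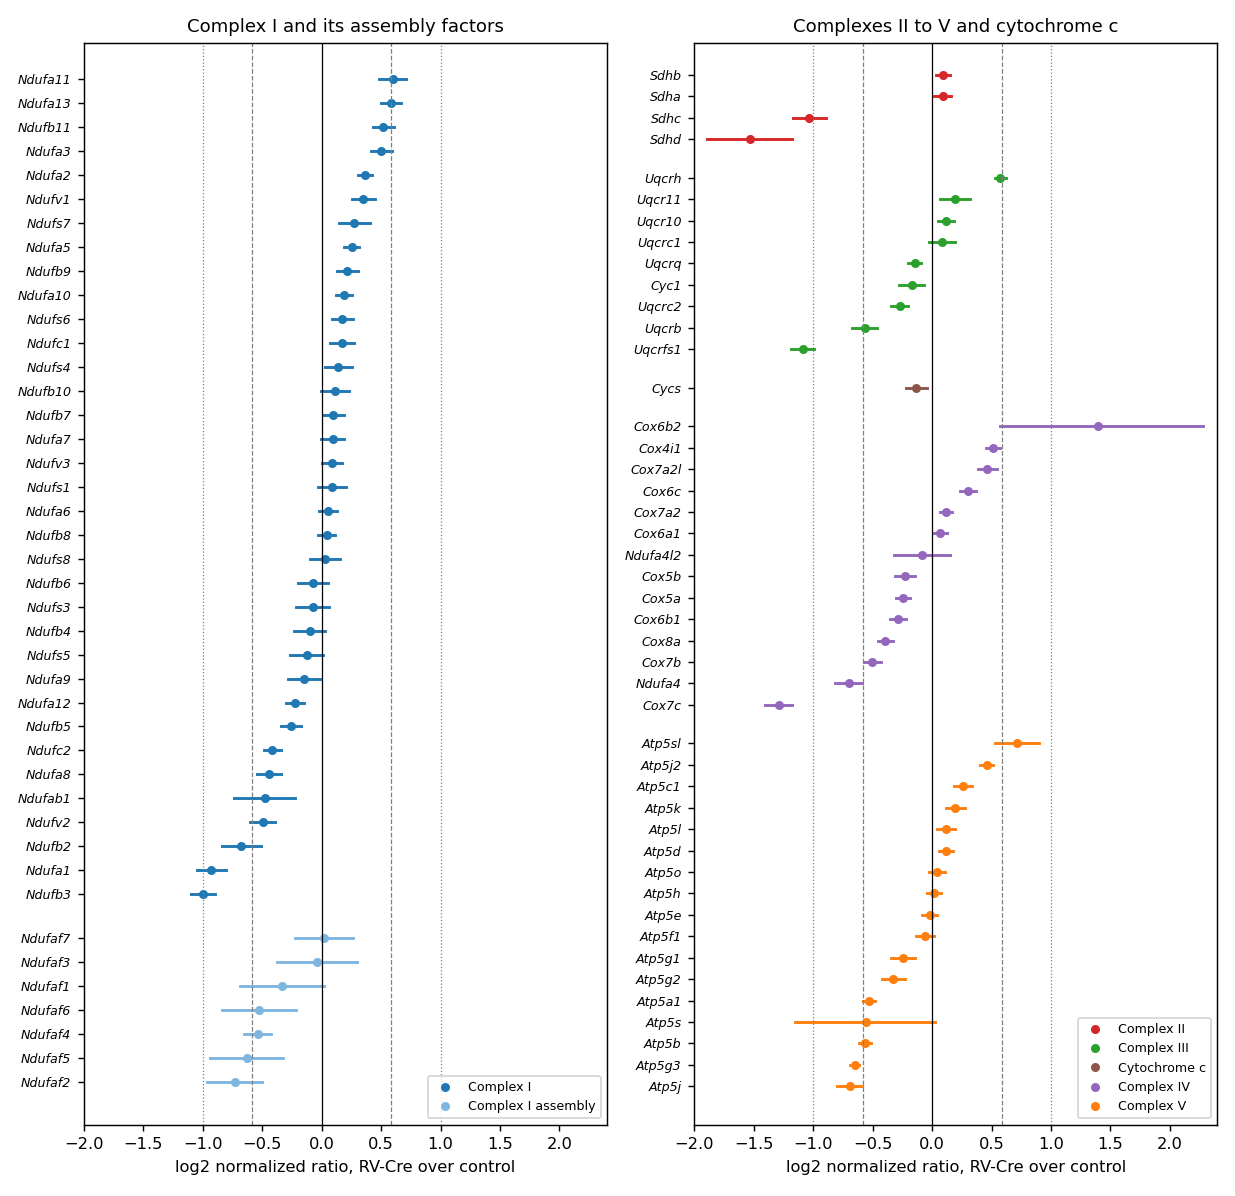
Normalized ratio of 87 of the 88 expressed genes, RV-Cre over control, on a log2 axis, ordered within its complex; points are ratios and bars exact 95% counting intervals, which hold no replicate error. Dashed lines mark 1.5-fold and dotted lines 2-fold, and complex II splits into a pair near 0 and a pair below -1.

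Complex II, the succinate dehydrogenase, divided by role. It oxidizes succinate with its catalytic head, made of the flavoprotein SDHA and the iron-sulphur protein SDHB, and is held in the membrane by SDHC and SDHD, which carry the heme and form the coenzyme Q site. *Sdha* had 3321 reads in the control and 3135 in the RV-Cre cells, a ratio of 1.07 (1.01 to 1.12), and *Sdhb* 4788 and 4529, a ratio of 1.07 (1.02 to 1.11). *Sdhc* had 1455 and 631 reads, a ratio of 0.489 (0.445 to 0.538). *Sdhd* had 287 and 88, a ratio of 0.346 (0.269 to 0.441), which is 2.89-fold lower and the lowest ratio among the 88 expressed members. Neither anchor gene shared a window with another gene. Summed, the head had a ratio of 1.07 (1.03 to 1.10), above 1 under 6 of 6 scalings, and the anchor one of 0.466 (0.426 to 0.508), below 1 under 6 of 6. *Sdhc* lies on chr1:171127165-171150603 and *Sdhd* on chr9:50596357-50603812 (both minus strand, GRCm38), so the pair is not neighbouring.

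Complex III, which passes electrons from coenzyme Q to cytochrome c, had a summed ratio of 1.01 (0.998 to 1.03) and a median log2 ratio of -0.15, which was above 0 under 1 of 7 scalings. The sum was carried by *Uqcrh*, and without it was 0.862. *Uqcrh*, the acidic hinge subunit that helps cytochrome c dock, had 7202 reads in the control and 9498 in the RV-Cre cells, a ratio of 1.49 (1.44 to 1.53). The Rieske iron-sulphur protein *Uqcrfs1*, which takes the first electron from coenzyme Q, had 2988 and 1246 reads, a ratio of 0.471 (0.440 to 0.503) or 2.13-fold lower. It lies on chr13:30540308-30545362 (minus strand), and none of its windows was shared. The 2 subunits thus stood on opposite sides of the complex. *Cyc1*, the cytochrome that hands the electron on, had 1688 and 1328 reads (log2 ratio -0.17), *Uqcrc1*, a core protein, 1466 and 1377 (0.08), and *Uqcrq*, a small subunit, 5610 and 4489 (-0.15). *Uqcrb*, which takes part in quinone binding, had 2035 and 1217 reads (-0.57), but 40.6% of its windows occurred in 4 other genes. *Uqcr11* had 1046 and 1061 (0.19). *Cycs*, the mobile cytochrome c that also starts apoptosis when released, had 2366 and 1912 reads, a ratio of 0.912 (0.858 to 0.969), and was above 0 under 1 of 7 scalings.

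Complex IV, the cytochrome c oxidase, had 14 of 20 genes expressed. Its summed ratio was 0.953 (0.940 to 0.965) and was above 1 under 3 of 6 scalings. Its median log2 ratio was -0.16, above 0 under 1 of 7. The catalytic subunits are encoded by mitochondrial DNA, so these genes are the nuclear subunits around them. *Cox4i1*, the regulatory subunit that binds ATP, had 4231 reads in the control and 5359 in the RV-Cre cells, a ratio of 1.43 (1.37 to 1.49). *Cox5a* had 5173 and 3867 reads (log2 ratio -0.25) and *Cox5b* 2861 and 2166 (-0.23). *Cox4i1* and *Cox5a* join the enzyme early in assembly, and they stood on opposite sides of 1, except under scaling to *Gapdh*, where the *Cox5* pair was also above 0. *Cox7c* was the lowest of the complex, with 2430 and 881 reads, a ratio of 0.409 (0.378 to 0.442). It is the least certain of the members far from 1, since 73.3% of its windows also occurred in 3 other annotated genes. *Ndufa4*, first named with complex I and now placed in complex IV, had 1883 and 1026 reads, a ratio of 0.615 (0.569 to 0.664), with no shared window. *Cox7b* had 4147 and 2593 (0.706, 0.672 to 0.741). *Cox6a1* and *Cox7a2*, the liver-type forms, were near equal, at 5455 and 5072 reads (log2 ratio 0.07) and 6336 and 6093 reads (0.12). *Cox7a2l*, which is not a subunit of the bare enzyme but links complexes III and IV in supercomplexes, had 2155 and 2638 reads, a ratio of 1.38 (1.30 to 1.46).

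Most tissue isoforms of complex IV were close to silent, but *Cox6b2* and *Ndufa4l2* passed the expression minimum. *Cox4i2*, the lung form, and *Cox8b* and *Cox8c* had no read in either library, which allows up to 0.217 RPM in the control and 0.244 RPM in the RV-Cre library (RPM, a count scaled to a fixed library size), taking 3 reads as the limit. *Cox7b2* had 0 and 1 reads, the muscle forms *Cox7a1* and *Cox6a2* 9 and 4, and 12 and 0, and these 6 genes did not pass the expression minimum. *Cox6b2*, the testis form, passed it in both libraries, with 18 reads in the control and 42 in the RV-Cre cells, a ratio of 2.63 (1.48 to 4.86). It held 0.408% (exact interval 0.242 to 0.644) of the *Cox6b1* and *Cox6b2* reads in the control and 1.30% (0.937 to 1.75) in the RV-Cre library. *Ndufa4l2*, the form of *Ndufa4* known from hypoxia, had 336 and 281 reads, and its share of the pair was 15.1% (13.7 to 16.7) in the control and 21.5% (19.3 to 23.8) in the RV-Cre library. The share was higher while the level of *Ndufa4l2* itself, at a ratio of 0.944 (0.803 to 1.11), was not distinguishable from equal. The exons of *Ndufa4l2* overlap those of *Shmt2*, so reads there cannot be told apart. The exons of 32 members overlap another annotated gene, with the same limit, and of the genes named these include *Ndufa2*, *Ndufa13*, *Ndufs1*, *Ndufs3*, *Ndufaf2*, *Ndufaf3*, *Uqcrb*, *Cox4i1*, *Cox5a*, *Cox6a2*, *Atp5a1*, *Atp5g2* and *Atp5j*.

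**Figure D3:**
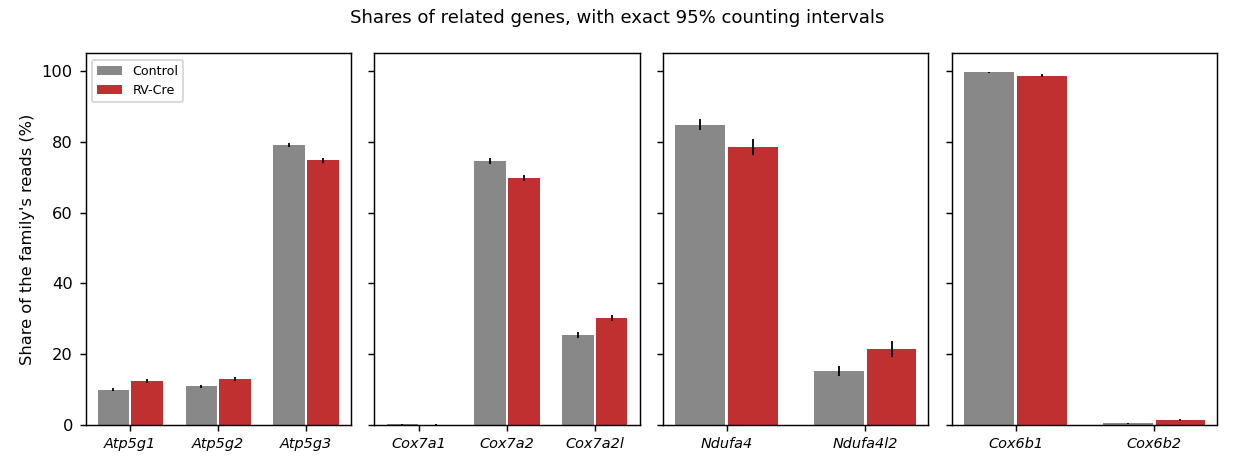
Share of each family's reads (y axis, percent) held by its genes (x axis) in the control and RV-Cre libraries, for 4 families; bars are shares and lines exact 95% binomial intervals. Atp5g3 held 79.2% of the c subunit reads in the control and 74.7% in the RV-Cre library, and Ndufa4l2 15.1% and 21.5% of its pair.

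Complex V, the ATP synthase, had the lowest summed ratio of the 5 complexes under the scaling used, 0.884 (0.874 to 0.893), with 74901 reads in the control and 58660 in the RV-Cre library, and it was above 1 under 1 of 6 scalings. The median log2 ratio of its 17 genes was -0.02 and was above 0 under 4 of 7 scalings. Sum and median differ because the genes with most reads were the lower ones, and without *Atp5g3* the summed ratio was 0.9504. The c ring, the rotor in the membrane, is encoded by 3 genes that give the same mature protein. *Atp5g3* had 15950 reads in the control and 9011 in the RV-Cre cells, a ratio of 0.638 (0.621 to 0.654). *Atp5g1* had 1995 and 1493 (0.845, 0.789 to 0.904) and *Atp5g2* 2202 and 1558 (0.798, 0.748 to 0.852), and the 3 together had a ratio of 0.676 (0.660 to 0.691), below 1 under 6 of 6 scalings. The share of *Atp5g3* among them was lower in the RV-Cre library, as the plot of family shares shows. *Atp5g1* and *Atp5g2* shared 20.3% and 41.4% of their windows with other genes, and *Atp5g3* none.

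The genes of the catalytic F1 head had unlike ratios. *Atp5a1* and *Atp5b*, the subunits of its hexamer, had 8452 and 5189 reads (ratio 0.693, 0.669 to 0.717) and 8113 and 4853 reads (0.675, 0.651 to 0.700). *Atp5c1*, the central stalk that turns inside the hexamer, had 2804 and 2980 reads (1.20, 1.14 to 1.26). The other 2 genes of the head and stalk lay at log2 ratios of -0.02 and 0.12. The peripheral stalk, which holds the head still, had a summed ratio of 0.9502 (0.928 to 0.973), above 1 under 3 of 6 scalings. In it *Atp5j*, coupling factor 6, was lowest, with 2043 and 1119 reads (0.618, 0.574 to 0.665), 15.1% of its windows shared and its exons overlapping those of *Gabpa*. The 3 other membrane subunits of the prefix, in the part where ATP synthase dimers form, had a summed ratio of 1.24 (1.21 to 1.28), above 1 under 6 of 6 scalings. In it *Atp5j2* had 5472 and 6660 reads (1.37, 1.33 to 1.42), with 13.5% of its windows shared. For *Atp5l*, another of the 3, 70.1% of the windows were shared, so its reads are uncertain. *Atp5sl*, which despite its symbol belongs to the assembly of complex I, had 403 and 585 reads (1.64, 1.44 to 1.86) and was the highest of the 17.

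The GC content of the transcript end, which the choice of genes did not use, varied with the log2 ratio. GC was taken from the last 300 bases of the longest GENCODE M21 transcript of each symbol, coding ones first. A 3′ kit places its reads near the end of the transcript in use, and which end these cells used was not checked. Across 87 members Spearman's rho was 0.58 and Pearson's r 0.55. Across 11634 rows that passed, Spearman's rho was 0.11, and across 2407 rows with a mean log2 value of at least 10 it was 0.17. Within the complexes rho was 0.53 for the 36 genes of complex I, 0.82 for 9 of complex III, 0.63 for 14 of complex IV and 0.49 for 16 of complex V, and it was 0.60 for the 73 members with at most 10% of shared windows. These are correlations across genes in the same pair of libraries. Genes are not independent replicates, and the points share library, depth and base composition, so they are a description without a test. The 77 mitochondrial ribosomal protein genes gave a rho of 0.30.

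Below 40% GC, 26 members had a median log2 ratio of -0.48, and at 1.5-fold 8 of them (30.8%) were lower, beside 26.9% of all rows in that bin, and 0 higher. From 40% to 50%, 36 members had a median of 0.03, with 4 lower (11.1%, beside 22.5% of all rows there) and 0 higher. At 50% and above, 25 members had a median of 0.12, with 2 higher (8%, beside 26.7%) and 0 lower, beside 16.1%. In the same bins all rows that passed had medians of -0.11, -0.01 and 0.17. The rows with a mean log2 value of at least 10 had medians of -0.19, -0.12 and 0.095 there. Of these abundant rows, 22.3%, 17.3% and 8.94% were lower at 1.5-fold, in the same order of bins, and 8.32%, 8.99% and 15.04% were higher. The members in the bins were not limited to that abundance. *Uqcrfs1* had 29.3% GC at its end, *Sdhd* 35.7% and *Cox7c* 34.7%, but *Sdhc*, at 48.7%, was 2.04-fold lower as well. With the trend over all rows removed, the count of members lower at 1.5-fold stayed at 12 and that of higher ones was 1 in place of 3, since *Ndufa11* went to a log2 ratio of 0.49 and *Atp5sl* has no GC value and left the count. The trend removed was small, a log2 slope of 0.07 per 10 percentage points of GC, against 0.33 across the members. The counts after its removal thus do not test the steeper trend of the members. The members' transcripts were short, with a median of 971 bases against 3029 for all rows, and length varied less with the log2 ratio (rho -0.17).

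**Figure D4:**
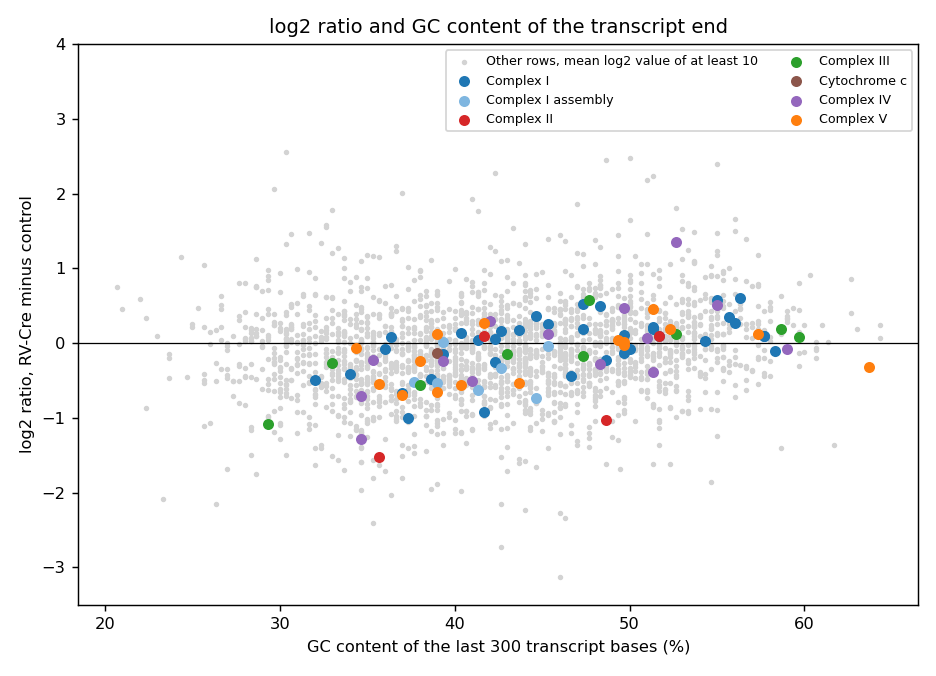
log2 ratio, RV-Cre minus control (y axis), against the GC content of the last 300 transcript bases in percent (x axis), for 87 members coloured by complex, with the other rows of a mean log2 value of at least 10 in grey. Members below 40% GC lie mostly below 0, with a median of -0.48, and those at 50% and above lie mostly above 0, with a median of 0.12.

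Genes that serve the complexes without being part of them were set beside the members. Of the 51 assembly factors outside the prefixes, 3 (5.88%) were higher and 9 (17.6%) lower at 1.5-fold, beside 23.5% and 22.9% of all rows, with a median log2 ratio of -0.18. *Cox17*, the copper chaperone of complex IV, had 2407 reads in the control and 722 in the RV-Cre library, a log2 ratio of -1.56, and *Coa6*, which works with copper delivery, 247 and 84 (-1.37). *Surf1*, a complex IV assembly factor, had 257 and 399 (0.81), and *Uqcc3*, of complex III, 492 and 691 (0.66). The list thus held genes on both sides of 1. Of 13 genes of coenzyme Q synthesis 4 (30.8%) were higher and 2 (15.4%) lower at 1.5-fold, with a median of 0.06. Among those with a log2 value of at least 6, *Coq7*, a hydroxylase of the pathway, was lowest, at 774 and 340 reads (-1.01), and *Coq10a*, a coenzyme Q binding protein, highest, at 102 and 214 (1.23). *Pdss2*, at 12 and 34 reads, and *Adck3*, at 18 and 42, lay higher on few reads.

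The lists of the citric acid cycle, carriers, mitochondrial DNA upkeep, mitochondrial ribosomal proteins and glycolysis had lower medians than the members under 7 of 7 scalings. All scalings but quantile normalization multiply a whole library by 1 factor, which moves lists and members nearly alike. That count is therefore hardly a check of the difference. The median of the carriers was below 0 under 7 of 7, and those of the other 4 lists were above 0 under 1, scaling to *Gapdh*. In the citric acid cycle, 0 of 18 genes were higher and 4 (22.2%, near the share of all rows) lower at 1.5-fold, with a median of -0.31. *Fh1*, the fumarase that takes the product of complex II, had 1421 and 442 reads, a log2 ratio of -1.51, and *Suclg2*, of the step that makes succinate, 493 and 178 (-1.29). *Mdh2*, the malate dehydrogenase, had 8229 and 8569 (0.23), and *Idh3g* 1419 and 1405 (0.16). *Fh1* and *Suclg2* serve the steps on either side of complex II in the cycle, but the other genes of the succinate-making step were nearer equal. *Suclg1* had 1837 and 1514 reads (-0.10) and *Sucla2* 819 and 604 (-0.26). Of 20 carriers and regulators of the ATP synthase, 1 (5%) was higher and 9 (45%) lower at 1.5-fold, with a median of -0.50. The shares of all rows were 23.5% and 22.9%. *Slc25a5*, which exchanges ADP and ATP across the inner membrane, had 7951 and 2181 reads (-1.69), and *Vdac1*, the channel of the outer membrane, 2920 and 1303 (-0.99), while *Slc25a12* (0.95) and *Slc25a11* (0.37) were the highest.

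Of 33 genes for upkeep and expression of mitochondrial DNA, 2 (6.06%) were higher and 15 (45.5%) lower at 1.5-fold, with a median of -0.40. The shares of all rows, here and for the lists that follow, were 23.5% higher and 22.9% lower. *Ssbp1*, the single-strand binding protein, had 699 and 222 reads (-1.48) and *Fastkd1* 72 and 21 (-1.56). *Polrmt*, the mitochondrial RNA polymerase, had 182 and 301 (0.90), and *Hsd17b10*, a part of mitochondrial RNase P, 670 and 1074 (0.85). Of 77 mitochondrial ribosomal protein genes, 1 (1.30%) was higher and 18 (23.4%, near the share of all rows) lower at 1.5-fold, with a median of -0.29, from *Mrps28* at -2.08 and *Mrpl27* at -1.72 to *Mrps6* at 0.57 and *Mrps25* at 0.64. Of 20 glycolytic genes, 1 (5%) was higher and 6 (30%) lower at 1.5-fold, with a median of -0.31. *Eno1*, also on the glycolysis list, had 0 reads in both libraries and was left out of the 20. The reason for its lack of reads was not tested. *Tpi1*, the triosephosphate isomerase, had 2834 and 1198 reads (-1.07) and *Slc2a1*, the glucose transporter, 988 and 436 (a ratio of 0.498), whereas *Gpi1* was at 0.39 and *Eno3* at 0.99. Of 15 nuclear regulators of the subunit genes, 1 (6.67%) was higher and 3 (20%) lower, with a median of -0.17. *Gabpa*, of the ETS family, had 515 and 243 reads (-0.91) and *Nfya* 358 and 183 (-0.79), while *Nrf1*, at 517 and 540, had a log2 ratio of 0.24 and *Esrra*, at 2315 and 2706, one of 0.40. These lists share both libraries with the members, so the values are placed side by side and the differences between lists were not tested.

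**Figure D5:**
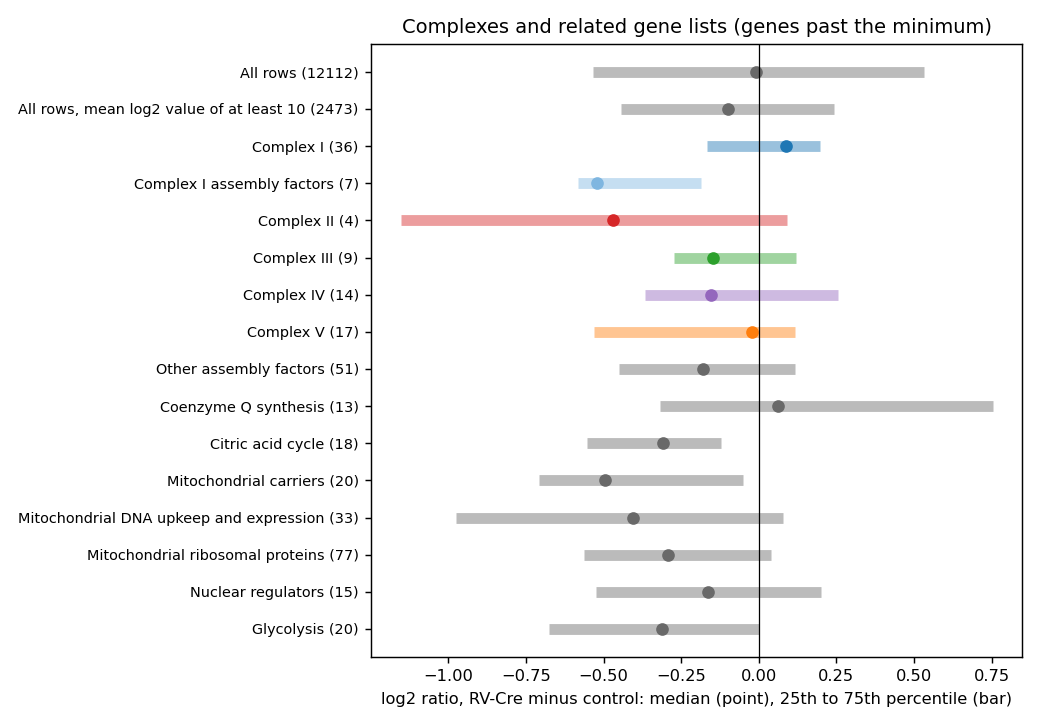
Median log2 ratio, RV-Cre minus control (x axis), of the complexes and of related gene lists, with the number of expressed genes in brackets; points are medians and bars run from the 25th to the 75th percentile over genes, not over replicates. Complex I sits at 0.09, while the carriers, at -0.50, and the genes of mitochondrial DNA upkeep and expression, at -0.40, lie lower.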

How the data were processed

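The authors deposited raw read counts per gene symbol, 1 table for each of the 2 libraries, made with a QuantSeq 3′ kit. The submitters' processing notes name bcl2fastq 2.20.0.422, Bowtie2, bedtools and mm10 without roles, and filters, molecular identifiers and use of strand are not given in the sources used here. Counts were scaled with TMM factors (edgeR 4.0.16, R 4.3.3), which were 1.06 for the control and 0.941 for the RV-Cre library, and compared as log2(normalized count + 1). The ratio without pseudocount has an exact Clopper-Pearson 95% interval on the split of reads, which covers counting error only. With 1 library per condition no test was run. Named genes were those of *Ptk2*, the catalytic core, complex II, the isoform families, genes below the minimum, the 2 highest, 2 lowest and 2 best-counted of each other complex, and the 2 highest and 2 lowest of each list, given a log2 level of 6 or more in 1 library. Overlapping genes, *Pdss2*, *Adck3*, *Suclg1*, *Sucla2*, *Eno1*, *Atp5l*, *Cd8a* and *Gzma* were added after their values were seen. The members, lists and thresholds were chosen with earlier results of these data known. GENCODE M21 gave transcripts for 93 of 94 members (not *Atp5sl*) and their places, and RefSeq gave promoters. Single values of 1 core subunit and 1 marker are not reported here. The interval and the fold rule were tested on simulated data.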

Additional observations from a re-analysis of the deposited data

How the results depend on the processing

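No paired analysis was possible because neither condition had more than 1 library, and for the same reason no library could be left out. Of 153 recomputed medians and counts of members, 125 stayed within a set limit, which for a count was 1.5 times its value. For a median it was the reach to either side of the counting interval of the gene or genes in the middle. This is not the counting error of the median itself. Scaling to *Gapdh*, itself lower at a log2 ratio of -0.42, moved the median of all rows by 0.44. It gave a member median of 0.39, 3 and 1 members at least 2-fold higher and lower, 23 and 4 at 1.5-fold, and medians of 0.50 for complex I, -0.11 for its assembly factors, -0.0515 for complex II, 0.27 for III, 0.26 for IV and 0.40 for V. Upper-quartile factors, which moved the median of all rows by 0.11, gave 2 members lower at 2-fold and 8 higher at 1.5-fold, with medians of -0.0501 for complex III and 0.0768 for V, and library totals without *Rn45s* gave 2, 8, -0.0567 and 0.0702. Quantile normalization gave 2 members at least 2-fold lower, 9 at least 1.5-fold higher, and medians of 0.19, -0.0434 and 0.0801 for complexes I, III and V. With no expression minimum 2 members were at least 2-fold higher, and with a log2 minimum of 6 there were 0, since *Cox6b2* failed it. Chosen after seeing the data, removal of the GC trend left 1 member at least 1.5-fold higher, 1 of the other 2, *Atp5sl*, having no GC value, and keeping members with at most 10% of shared windows gave complex III a median of -0.0316. The cause was not tested for the scalings. Among the 14 named members at least 1.5-fold from equal, 0 signs changed. These members were picked at a log2 ratio at least 0.585 from 0, and the largest move of the median of all rows was 0.44. A change of sign was thus hardly possible, and the count is no check of stability. Of 467 single values 137 left their counting interval, as did 45 of 72 ratios of summed reads. Genes with few reads, such as *Cox6b2*, limit what this depth can show.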

Other observations

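*Cyct*, the testis form of cytochrome c, lies outside the symbols used and was picked after its counts were seen. It had 3 reads in the control and 47 in the RV-Cre cells, a ratio of 17.7 (exact 95% interval 5.69 to 88.8). *Usmg5* and *2010107E04Rik*, which encode small ATP synthase subunits under symbols without the prefix, had 2217 and 1818 reads (log2 ratio -0.11) and 3553 and 4294 reads (0.45).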
